A study of Mus musculus with 6 samples.

Results

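The proteasome genes of mouse embryonic stem (ES) cells were followed on 6 arrays of 3 clones, each grown with its human GTF2I transgene induced or uninduced. Members were the genes whose symbol starts with Psma, Psmb, Psmc, Psmd, Psme, Psmf or Psmg followed by a digit, taken from probe sets that carry a single symbol in the platform annotation. A probe set is a group of short oligonucleotides on the array that report 1 transcript region. This gave 49 genes with 103 probe sets, out of 18193 genes represented among 45037 probe sets tested, and the brightest probe set stood for each gene. Of the 49, 47 encode subunits, regulators or assembly factors of the proteasome, and 2 share only the symbol: Psmc3ip, a meiotic recombination factor, and Psme3ip1, whose product binds the activator encoded by Psme3. By role, the list held 8 genes of the 20S alpha ring, 7 of the 20S beta ring, 4 immunoproteasome and thymoproteasome subunits, 4 assembly factors of the 20S core, 9 genes of the 19S base, 8 of the 19S lid, 3 assembly factors of the 19S particle and 4 activators or inhibitors. All 49 were found in RefSeq (GRCm38.p6). Psme2 was measured here only by a probe set that also carries the symbol Psme2b, so it was not a member.

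The arrays came from ES cell clones A1, B3 and C6, derived from the line EBRTcH3 (EB3), in which the human GTF2I coding sequence sits at the Rosa26 locus behind a promoter that tetracycline represses. Induced cells had been kept for 24 h without tetracycline, and uninduced cells had tetracycline throughout (0 h). Every clone gave 1 induced and 1 uninduced array, so each group held 3 arrays and each clone was a single line with no repeat array per state. GTF2I encodes the transcription factor TFII-I, whose gene lies in the Williams-Beuren syndrome region, and the comparison asks which genes respond when it is raised. All 6 arrays carry the same transgene, and the removal of tetracycline cannot be told apart from the transgene's induction. One characteristics field gives GTF2IRD2 in place of GTF2I, and the name in the titles is used here.

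The proteasome is the barrel-shaped protease that degrades proteins tagged with ubiquitin. Its 20S core has outer rings of alpha subunits that gate the entrance and inner rings of beta subunits, of which Psmb5, Psmb6 and Psmb7 carry the cutting activities. The 19S particle caps the core: its base holds the ATPases Psmc1 to Psmc6 that unfold substrates, and its lid removes the ubiquitin chain through Psmd14. In immune cells and under interferon, Psmb8, Psmb9 and Psmb10 replace the standard catalytic subunits, and Psmb11 does so in the thymus.

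The array medians lay between 5.06 and 5.11 and pairs of arrays correlated at 0.991 to 0.996 across all probe sets. All 10 ES cell markers measured stood above the array median on every array, against 2 of 8 fibroblast markers (Thy1 and Tagln) and 4 of 7 immune cell markers (Cd74, Laptm5, Coro1a and Ptpn6). The mouse Gtf2i probe sets were not placed against the human coding sequence, so the induction itself was not checked here. Clone A1 stood apart. Over all genes, the change with induction in A1 was opposite to the change in both other clones for 45.7% of genes and went with both for 16.7%, and among the 9561 genes with a mean of at least 6 these shares were 60.8% and 11.3%. The departures of A1 named here are therefore followed by the difference in B3 and C6 alone. That difference is itself a part of the departure, so it is no separate check of it. The files do not settle whether the 2 A1 arrays carry the right state labels, and an exchange would turn the sign of every A1 difference and alter every A1 departure and every mean over the clones. Values are given as labelled.

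The promoters of 4 members are shown first: Psme3, the member with the largest differences, Psma5 and Psma7, the alpha ring genes that differed most, and Psmb5, the catalytic subunit used to check the list. The 250 bases before the annotated start are from RefSeq (GRCm38.p6). They are written 5′ to 3′ on the gene's strand, and capitals mark matches on either strand to the letters CCAAT, to those of the GC box, which are GGGCGG, and to the core of the antioxidant response element, which is TGACNNNGC.
Psme3 (chr11:101315963-101316212, plus strand): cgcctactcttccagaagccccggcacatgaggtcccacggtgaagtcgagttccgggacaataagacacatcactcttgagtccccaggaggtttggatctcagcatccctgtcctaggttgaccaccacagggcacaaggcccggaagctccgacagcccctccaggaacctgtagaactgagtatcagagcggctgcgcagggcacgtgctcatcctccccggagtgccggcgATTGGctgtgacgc
Psma5 (chr3:108256676-108256925, plus strand): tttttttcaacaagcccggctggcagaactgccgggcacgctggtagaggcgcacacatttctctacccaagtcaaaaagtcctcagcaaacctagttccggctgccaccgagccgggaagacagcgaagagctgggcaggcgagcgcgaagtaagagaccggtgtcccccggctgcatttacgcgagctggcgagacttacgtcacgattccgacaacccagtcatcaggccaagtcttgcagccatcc
Psma7 (chr2:180042465-180042714, minus strand): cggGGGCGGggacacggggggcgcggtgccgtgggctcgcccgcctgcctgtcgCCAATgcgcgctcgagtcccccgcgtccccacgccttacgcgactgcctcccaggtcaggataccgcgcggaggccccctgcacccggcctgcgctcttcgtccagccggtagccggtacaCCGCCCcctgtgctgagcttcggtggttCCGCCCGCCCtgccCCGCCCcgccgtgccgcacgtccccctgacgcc
Psmb5 (chr14:54617996-54618245, minus strand): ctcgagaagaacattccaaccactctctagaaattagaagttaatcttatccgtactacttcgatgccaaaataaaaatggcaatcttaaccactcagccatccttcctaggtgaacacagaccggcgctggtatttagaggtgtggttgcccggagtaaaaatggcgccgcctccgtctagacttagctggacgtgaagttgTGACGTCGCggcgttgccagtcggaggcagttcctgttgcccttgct

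The Psme3 window held 1 match, the reverse of CCAAT from 14 to 10 bases before the start. The Psmb5 window likewise held 1 match, TGACNNNGC from 47 to 39 bases before the start. Psma7 had 6 matches, 1 CCAAT and 5 GC boxes, of which those at 47 to 42 and 43 to 38 bases before the start overlap. Psma5, whose differences had the sign of Psma7's in every clone, had none. Of the 41 members with a promoter in the table, 5 (12.2%) held TGACNNNGC, against 10.2% of all 32851 promoters of the same length. CCAAT stood in 16 members (39%), against 33.8% of all promoters. GGGCGG stood in 22 (53.7%), against 32.7%. These are matches of letters and no measure of binding.

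Across the 3 clones, no proteasome gene differed between induced and uninduced cells beyond the spread of the arrays. Values are log2 RMA units (robust multiarray averaging), on which a difference of 1 is a 2-fold change, and they compare a gene with itself across arrays and not with other genes. Of the 49 members, 28 were higher and 21 lower in the mean of the induced arrays, with a median difference of 0.02, against -0.00 over all 18193 genes. In limma 0 of the 49 passed an adjusted p of 0.05, the smallest being 1.00, none had an unadjusted p under 0.05, and the methods' t-test and limma with the clone as a block also called 0. The background was the same: 0% of the 45037 probe sets passed, with 436 at an unadjusted p under 0.05. The 95% interval of the difference lay within 0.5 of zero on both sides for 44 of the 49 genes, and its median half-width was 0.25. The 5 whose intervals reached further were Psme3, Psmd3, Psmg4, Psmb9 and Psmc3ip. In bulk RNA, fewer cells of a type and less RNA per cell cannot be told apart.

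Psmb5, the chymotrypsin-like subunit of the core, stood at 11.83, 11.86 and 11.81 in induced A1, B3 and C6 cells, and at 11.75, 11.97 and 11.96 in uninduced ones. The groups overlapped, because A1 was a little higher when induced and the others a little lower. The mean difference was -0.06 (95% interval -0.29 to 0.17). The least variable member was Psmb6, the caspase-like subunit, with an SD over the 6 arrays of 0.02. Over the 49 members the median of that SD was 0.10, against 0.15 over all genes and 0.17 over genes with a mean of at least 6, and the highest was 0.69 for Psme3. One gene of the 49 had groups that did not overlap: Psmd2, a scaffold subunit of the base, at 11.53, 11.49 and 11.50 in induced cells and 11.58, 11.56 and 11.66 in uninduced cells. Its difference was -0.09 (95% interval -0.30 to 0.11), and 4.55% of all probe sets had groups that did not overlap.

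**Figure D1:**
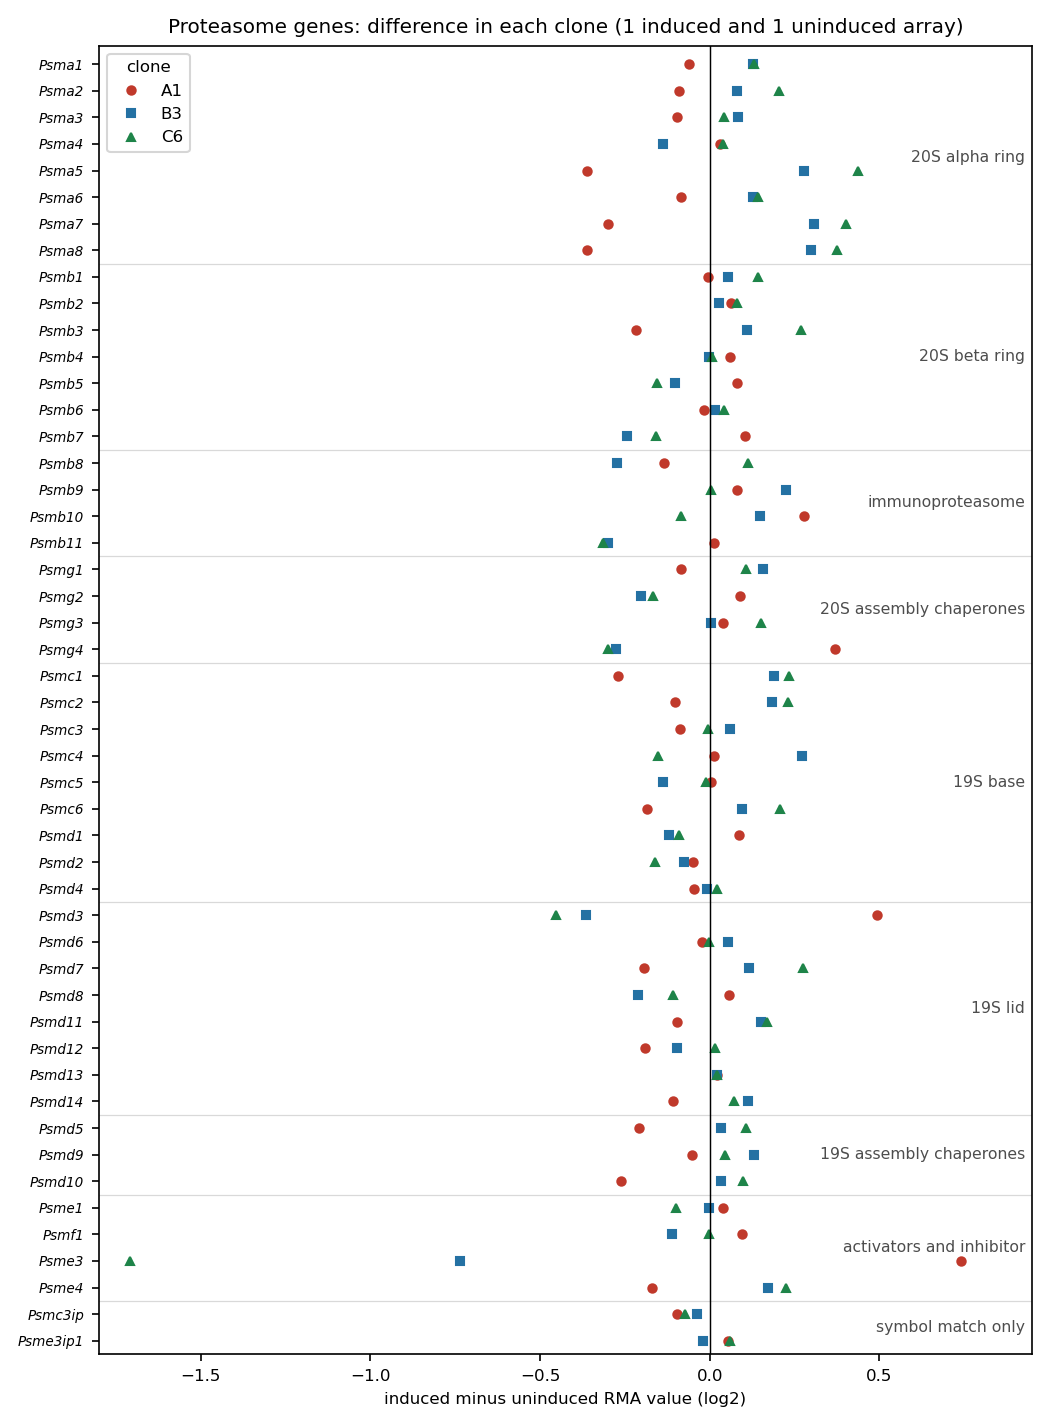
Induced minus uninduced RMA value (log2, horizontal axis) of the 49 genes in each clone, grouped by subcomplex, with 1 point per clone and no error bar because each point is the difference of 2 arrays. Apart from Psme3, every point lies between -0.45 and 0.49, and in 33 of the 49 genes the A1 point is on the other side of zero from both other clones.

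Within the clones, the differences ran in opposite directions. In 33 of the 49 genes (67.3%) the A1 difference was opposite in sign to both the B3 and the C6 difference: 21 were lower in A1 and higher in B3 and C6, and 12 the reverse. In 6 genes the sign was the same in all clones, negative for Psmd2 and Psmc3ip and positive for Psmd13, Psmg3, Psmb2 and Psmb9. The share of opposite genes over the 46 members with a mean of at least 6 was 69.6%, beside 60.8% for all genes at that level. Of these 46, 21 were lower in A1 and higher in the others and 11 the reverse, beside 2941 and 2869 of 9561 genes. In A1, B3 and C6 the median member difference was -0.05, 0.03 and 0.04. Across the 49 genes, which are not independent, the B3 and C6 differences correlated at r = 0.81, whereas A1 correlated with B3 at -0.73 and with C6 at -0.85. Over all genes these values were 0.49, -0.46 and -0.55. At a mean of at least 6 they were 0.85, -0.81 and -0.86 for the 46 members and 0.69, -0.69 and -0.76 for all genes. The points of a clone share its 2 arrays. The mean level of the 10 ES cell markers was 12.20, 12.02 and 11.97 in induced A1, B3 and C6, and 12.07, 12.14 and 12.08 in uninduced cells, so that A1 was higher and the other clones lower with induction, and its part in these differences was not tested.

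**Figure D2:**
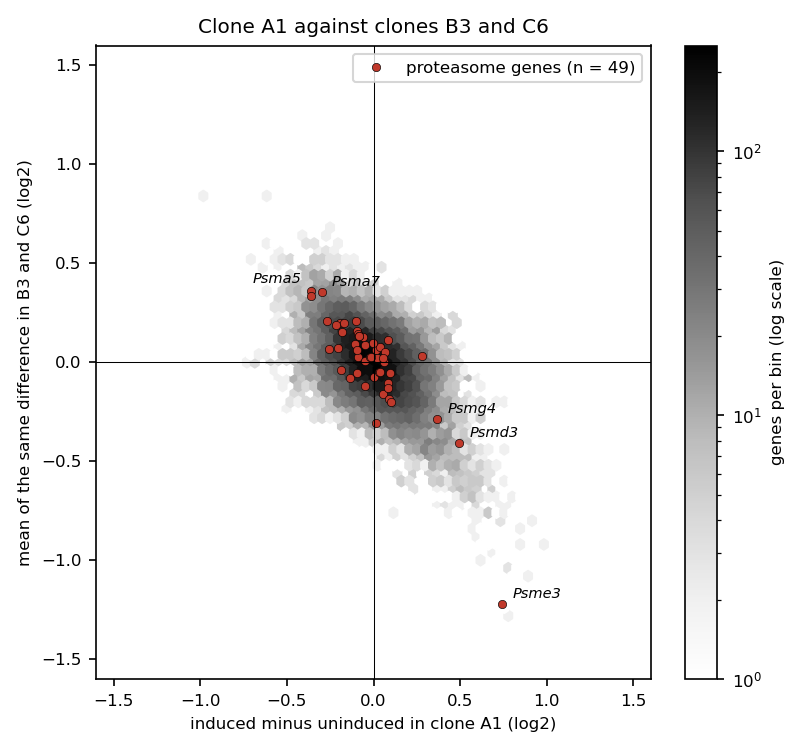
Induced minus uninduced difference (log2) in A1 on the horizontal axis and the mean of the same difference in B3 and C6 on the vertical axis, with the 18193 genes as grey bins (number of genes on a log scale) and the 49 proteasome genes as red points. The points run from upper left to lower right with the grey cloud, and Psme3 lies at the lower right, at 0.74 in A1 and -1.22 in the other clones.

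A pair of contrasts of the clones were then tested over all probe sets. In the first, the difference of A1 was set against the mean of the differences of B3 and C6 (limma, 1 clone against 2). It was chosen because earlier work on these arrays had shown A1 to stand apart, so its calls are no separate evidence of that. Of the 49 members, 2 passed, both higher in A1 relative to the others, Psme3 and Psmd3, which is 1 activator and 1 lid subunit. Over all probe sets 2.71% passed, 1.71% higher and 0.999% lower. In all, 7 of the 49 (14.3%) had an unadjusted p under 0.05, against 18% of all genes, the other 5 being Psma5, Psma7, Psma8, Psmg4 and Psmc1. In the second, B3 and C6 alone were compared between states with the clone as a block, which leaves A1 out. It reuses the B3 and C6 differences of the first, and A1 was left out because it was known to stand apart. There 1 member passed, Psme3, lower in induced cells, against 2.18% of all probe sets (0.87% higher and 1.31% lower).

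Psme3 encodes the nuclear activator REG gamma, which opens the 20S core without ubiquitin or ATP. Its brightest probe set (1418078_at) stood at 10.52, 9.67 and 8.74 in induced A1, B3 and C6 cells, and at 9.78, 10.40 and 10.45 in uninduced ones. Induced C6 was the lowest array and induced A1 the highest, so the groups overlapped at both ends. Clone by clone, A1 differed by 0.74, B3 by -0.74 and C6 by -1.71, with a mean of -0.57 (95% interval -1.52 to 0.38). A1 exceeded the mean of B3 and C6 by 1.96 ± 0.33 (SE; 95% interval 1.22 to 2.71; limma, adjusted p = 0.0206). With an intensity-dependent, robust variance model the same contrast no longer passed (adjusted p = 0.224). In B3 and C6 alone the gene was lower in induced cells by -1.22 ± 0.19 (SE; limma with the clone as a block, adjusted p = 0.0189). A second probe set of the gene (1418079_at) went the same way at a smaller size, with differences of 0.12, -0.40 and -0.52. The third (1438509_at) averaged 3.34, below every array's lower quartile.

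Psmd3, a structural subunit of the lid, had the same sign as Psme3 in every clone, at a smaller size. It stood at 10.72, 10.39 and 10.13 in induced A1, B3 and C6 cells, against 10.23, 10.76 and 10.58 in uninduced ones. The groups overlapped, with A1 higher and both other clones lower when induced. Its difference of 0.49 in A1 exceeded the mean of the others by 0.90 ± 0.18 (SE; 95% interval 0.49 to 1.32; limma, adjusted p = 0.0396). In B3 and C6 alone the difference was -0.41 (adjusted p = 0.0902, not passed). Psmg4, an assembly factor of the 20S core, also ran this way, at 9.42, 9.39 and 8.94 in induced and 9.05, 9.67 and 9.24 in uninduced A1, B3 and C6 cells. Its A1 departure of 0.66 did not pass (adjusted p = 0.0987), nor did its difference of -0.29 in B3 and C6 alone (adjusted p = 0.214). With only probe sets of mean 6 or more fitted, the departure of Psmg4 passed (limma, adjusted p = 0.0356).

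**Figure D3:**
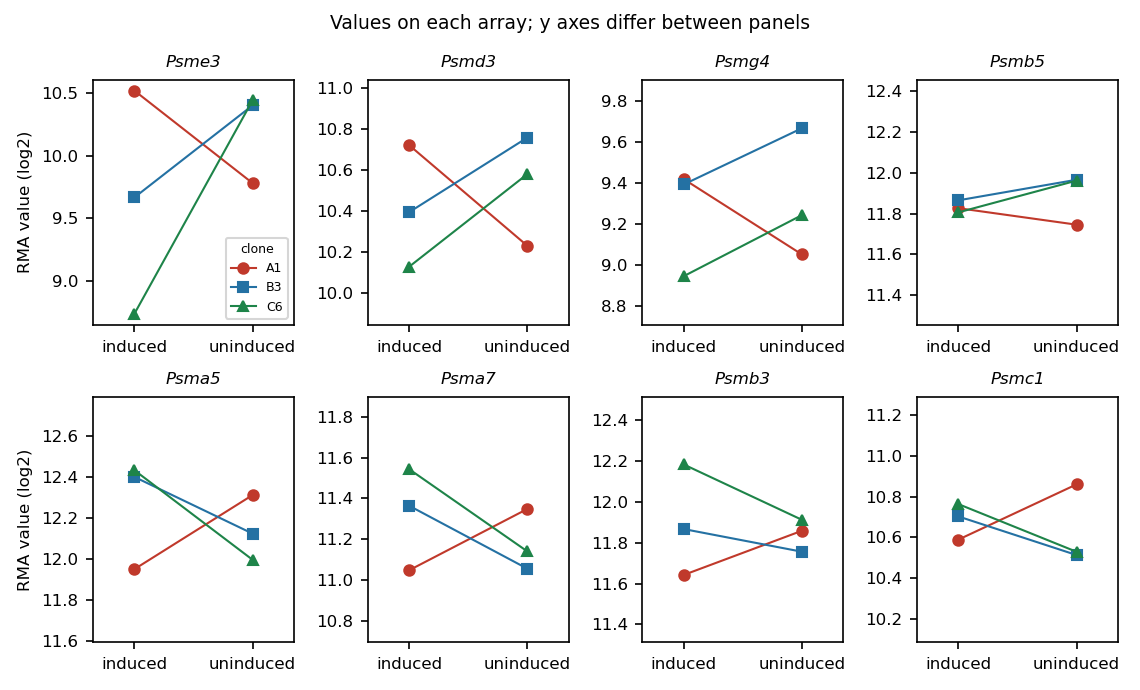
RMA values (log2, vertical axes, which differ between panels) of 8 proteasome genes on each array, with induced cells on the left, uninduced cells on the right and the points of each clone joined. Psme3, Psmd3 and Psmg4 were higher when induced in A1 and lower in the other clones, whereas Psma5, Psma7, Psmb3 and Psmc1 had the opposite slopes.

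The alpha ring mostly had the opposite signs, and none of its genes passed at its brightest probe set in the main fit. With only probe sets of mean 6 or more fitted, the departures of Psma5 and Psma7 passed (limma, adjusted p = 0.0321 and 0.0371). Under that filter 6 of 46 members passed, against 1173 of 9561 genes. At the brightest probe set, A1 was lower and B3 and C6 higher when induced in 7 of its 8 genes, the exception being Psma4. The same pattern stood in 2941 of the 9561 genes with a mean of at least 6. Over the ring, A1, B3 and C6 had median differences of -0.09, 0.13 and 0.17. Psma5 had the largest A1 departure of the ring, and stood at 11.95, 12.40 and 12.43 in induced A1, B3 and C6 cells and 12.31, 12.12 and 12.00 in uninduced ones. The highest and the lowest of its 6 arrays were both induced, C6 and A1. That departure was -0.72 (adjusted p = 0.0837), and in B3 and C6 alone it differed by 0.36 (adjusted p = 0.137). Psma7, the alpha4 subunit, stood at 11.05, 11.36 and 11.54 in induced cells of A1, B3 and C6, against 11.35, 11.06 and 11.14 in uninduced cells. Its departure was -0.65 (adjusted p = 0.102) and its difference in B3 and C6 alone 0.35 (adjusted p = 0.133). A second probe set of the gene (1423568_at) passed at -0.84 (adjusted p = 0.0493), A1 differing by -0.39, B3 by 0.41 and C6 by 0.50, whereas in B3 and C6 alone its 0.45 did not pass (adjusted p = 0.0662). Psma8, a testis form closely related to Psma7, departed by -0.70 (adjusted p = 0.0854), with 0.34 in B3 and C6 alone (adjusted p = 0.150). Whether its probes also take up Psma7 transcript was not tested. The brightest alpha gene, Psma6, stood at 12.49, 12.68 and 12.72 in induced A1, B3 and C6 cells and at 12.57, 12.55 and 12.58 in uninduced ones, and its interval for the mean difference was -0.17 to 0.29.

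In the beta ring the signs were mixed. Of the 7 genes, 3 were lower in A1 and higher in the others, and 2 the reverse. Psmb3, a structural subunit, had the largest departure, -0.41 (adjusted p = 0.317, and 0.19 in B3 and C6 alone, adjusted p = 0.445), with 11.64, 11.87 and 12.18 in induced A1, B3 and C6 and 11.86, 11.76 and 11.91 in uninduced cells. Psmb7, the trypsin-like subunit and the brightest of the ring, stood at 12.80, 12.63 and 12.62 in induced cells and 12.70, 12.87 and 12.78 in uninduced cells of the same clones. Its mean difference was -0.10 (95% interval -0.33 to 0.14).

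The inducible catalytic subunits were measured at 4 genes. Psmb8 (the inducible counterpart of Psmb5) and Psmb11 (that of the thymus) averaged 3.92 and 3.91, below the median of every array. Psmb8 stood at 3.72, 3.85 and 4.06 in induced A1, B3 and C6 and 3.85, 4.12 and 3.94 in uninduced cells. Psmb11 stood at 3.85, 3.79 and 3.80 in induced cells and 3.84, 4.09 and 4.11 in uninduced cells. Psmb9 and Psmb10, the inducible counterparts of Psmb6 and Psmb7, averaged 5.92 and 8.28, above the array medians. Psmb10 stood at 8.16, 8.46 and 8.38 in induced A1, B3 and C6 cells and at 7.89, 8.31 and 8.46 in uninduced ones, with a mean difference of 0.11 (95% interval -0.26 to 0.49). Both A1 arrays were the lowest.

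The 9 genes of the 19S base had SDs over the arrays of 0.06 to 0.14. Psmc1, an ATPase, departed most, by -0.48 (adjusted p = 0.218, and 0.21 in B3 and C6 alone, adjusted p = 0.376), at 10.59, 10.70 and 10.76 in induced A1, B3 and C6 cells and 10.86, 10.51 and 10.53 in uninduced ones. Uninduced A1 was the highest of its arrays. Psmc2, another ATPase and the brightest of the base, stood at 11.87, 12.15 and 12.20 in induced cells and 11.97, 11.96 and 11.97 in uninduced cells. Its 3 uninduced arrays lay together, with induced A1 below them and induced B3 and C6 above. In the lid, 6 of 8 genes had a negative A1 departure, Psmd3 and Psmd8 being the exceptions. Psmd14, the deubiquitinase and the brightest lid gene, stood at 12.21, 12.28 and 12.29 in induced A1, B3 and C6 and 12.31, 12.17 and 12.22 in uninduced cells, a mean difference of 0.02 (95% interval -0.19 to 0.24).

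The assembly factors of the 19S particle, 3 genes, were all lower in A1 and higher in B3 and C6 when induced. Psmd5 stood at 10.26, 10.33 and 10.40 in induced A1, B3 and C6 and 10.47, 10.29 and 10.29 in uninduced cells, and its departure of -0.28 did not pass (adjusted p = 0.509), nor did its 0.07 in B3 and C6 alone (adjusted p = 0.820). Among those of the 20S core, Psmg1 stood at 11.01, 11.03 and 11.23 in induced A1, B3 and C6 cells and 11.09, 10.87 and 11.12 in uninduced ones, with the lowest array in B3. Psmg2, its partner, stood at 10.80, 10.24 and 10.51 in induced and 10.71, 10.44 and 10.68 in uninduced cells, with a mean difference of -0.09 (95% interval -0.46 to 0.27). Of the activators, Psme1 was within 0.10 of zero in every clone. Psme4, a nuclear activator that caps the core, stood at 11.02, 11.51 and 11.50 in induced A1, B3 and C6 and 11.18, 11.34 and 11.27 in uninduced cells. Both of its A1 arrays were below the others, and its brightest probe set may share sequence with other transcripts, as its design class (_s_at) states. Its differences there were -0.17, 0.17 and 0.23 in A1, B3 and C6. A second probe set of Psme4 (1452211_at, mean 10.96) also had its A1 arrays lowest. The differences of that probe set ran the other way, at 0.21, -0.06 and -0.19.

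Probe sets of the same gene did not always have the same sign. Among the 19 members with at least 2 probe sets of mean 6 or more, the A1 departure had the same sign on all of them in 12. Psmd11, a lid subunit that stabilises the joined particle, was the widest case: 5 such probe sets ran from -0.67 to 1.36. The brightest (1437080_s_at, mean 12.20) changed by -0.09, 0.15 and 0.17 in A1, B3 and C6. The probe set 1431013_at (mean 6.29) ran the other way, at 6.52, 6.28 and 5.88 in induced A1, B3 and C6 cells and 5.74, 6.64 and 6.66 in uninduced ones, and its departure of 1.36 passed (adjusted p = 0.0177). In B3 and C6 alone its difference of -0.57 did not (adjusted p = 0.0539). A dim one (1456104_at, mean 4.42, below the array medians) departed by -0.88 (adjusted p = 0.0479), and in B3 and C6 alone it was higher in induced cells by 0.53 (adjusted p = 0.0475). A dim probe set of Psme4 (1446464_at, mean 4.21) was also higher there, by 0.53 (adjusted p = 0.0436), whereas its brightest, at 0.20, did not pass (adjusted p = 0.407). Which transcript regions these probe sets cover was not analysed here.

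**Figure D4:**
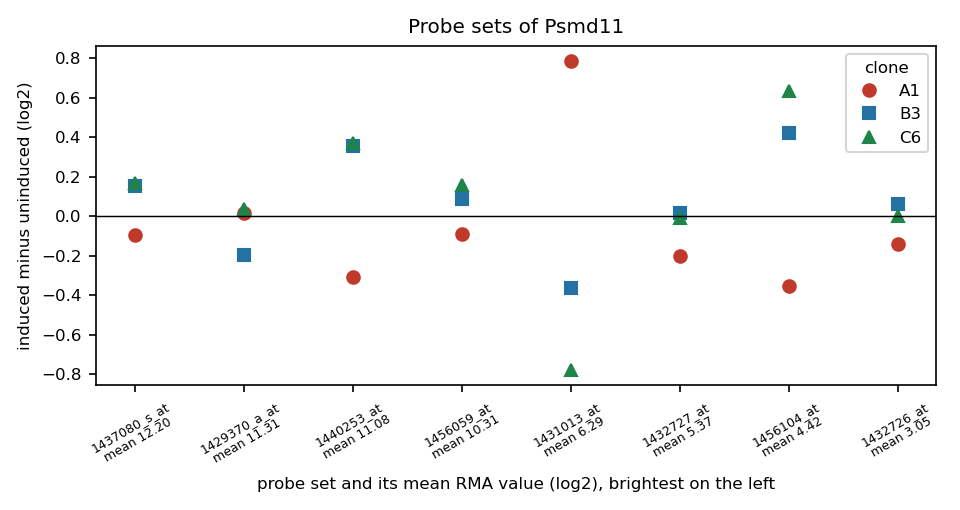
Induced minus uninduced difference (log2, vertical axis) in each clone for the 8 probe sets of Psmd11, ordered from the brightest on the left by their mean RMA value. At 1431013_at A1 is at 0.79 and C6 at -0.78, whereas at 1440253_at A1 is at -0.31 and C6 at 0.37.

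Lastly, the level of each gene was compared between the clones over both states. Only Psmc3ip, one of the 2 genes that share no more than the symbol, passed (limma F test, 1.13% of all probe sets passed), so no subunit, regulator or assembly factor did. Psmc3ip stood at 8.89, 8.02 and 8.82 in induced A1, B3 and C6 cells and at 8.98, 8.06 and 8.89 in uninduced ones. Both B3 arrays were below all others, and the clone means spanned 0.89 (adjusted p = 0.0307). Its second probe set (1442058_s_at) had a span of 0.94 and did not pass (adjusted p = 0.145). With the dimmest probe sets left out, the first no longer passed either (adjusted p = 0.0623).

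Of the 49, 6 (12.2%) had an unadjusted p under 0.05 for the clone, against 17.2% of all genes. The 5 beside Psmc3ip did not pass and are given as values. Psmb9 stood at 6.23, 5.68 and 6.01 in induced A1, B3 and C6 and at 6.15, 5.45 and 6.01 in uninduced cells, lowest in both B3 arrays, a span of 0.62 (adjusted p = 0.120). The mean level of 8 interferon response genes was 5.55, 5.55 and 5.51 in induced A1, B3 and C6 cells and 5.47, 5.56 and 5.58 in uninduced ones, and was not lowest in B3 in either state. That of the 7 immune cell markers was 6.06, 5.87 and 6.08 in induced and 6.12, 5.80 and 6.00 in uninduced cells, lowest in B3 in both. The part of either list in the Psmb9 values was not tested. Psmd10, an assembly factor also known as gankyrin, was likewise lowest in B3, at 8.50, 8.13 and 8.60 in induced A1, B3 and C6 and 8.76, 8.10 and 8.51 in uninduced cells, a span of 0.51 (adjusted p = 0.221). Psmf1, an inhibitor of the core in vitro, was highest in both A1 arrays, with a span of 0.34 (adjusted p = 0.325). The others were Psmb10 (span 0.39) and Psmg2 (span 0.41). Psme3ip1 stood between 10.14 and 10.40 on all arrays.

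**Figure D5:**
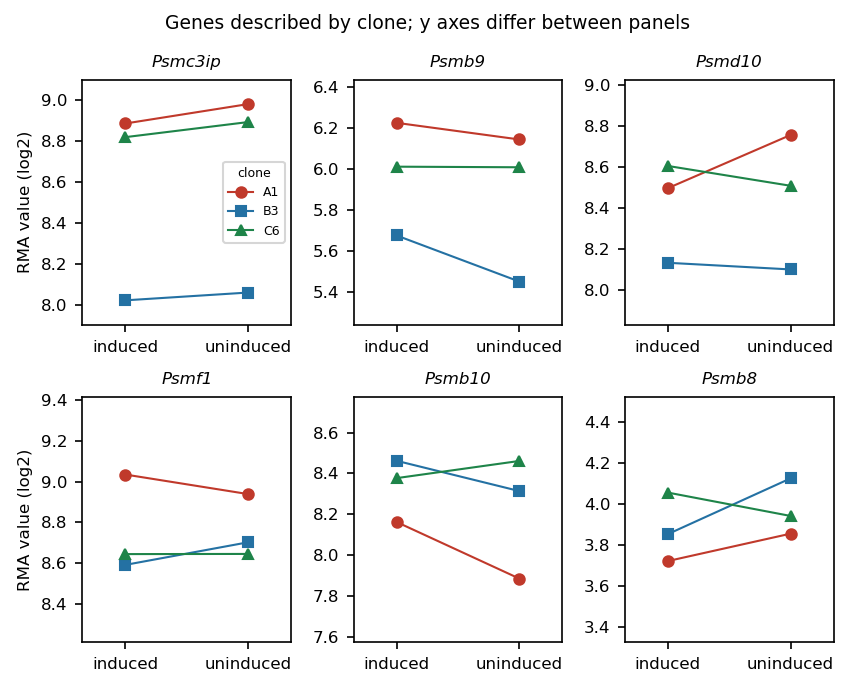
RMA values (log2, vertical axes, which differ between panels) of 6 genes on each array, induced on the left and uninduced on the right, and the points of each clone joined. Psmc3ip, Psmb9 and Psmd10 were lowest in both B3 arrays, Psmf1 highest and Psmb10 lowest in both A1 arrays, and Psmb8 lies below the array medians.

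Genes that feed and build the proteasome were taken from a separate list of 41, of which 32 were measured here and 9 not analysed. None of the 32 passed between induced and uninduced cells (limma, 0 had an unadjusted p under 0.05, median -0.02). The smallest p was that of Rad23b, with a mean difference of -0.23 (95% interval -0.57 to 0.12). In B3 and C6 alone 0 passed and 10 had an unadjusted p under 0.05 (limma with the clone as a block), against 2852 of 18193 genes. In 23 of the 32 (71.9%) A1 was opposite to both other clones. This share was 60.8% over genes with a mean of at least 6, a level that all 32 reach. The median difference of the 32 in A1, B3 and C6 was 0.05, -0.06 and -0.10. None passed the A1 contrast in the main fit (limma), and 10 (31.2%) had an unadjusted p under 0.05, against 18% of all genes. With only probe sets of mean 6 or more fitted, it was again 10 of the 32, against 2873 of 9561 genes. Under that filter 7 of the 32 passed, 6 higher and 1 lower, against 1173 of 9561 genes. The intensity-dependent, robust variance model passed 2 of the 32, against 374 of 18193 genes. Quantile normalization passed 1, against 655 of 18193. The adjusted p-values that follow are from the main fit. Nfe2l1, the transcription factor that raises proteasome genes when the protease is inhibited, stood at 9.35, 9.09 and 8.93 in induced A1, B3 and C6 cells and 8.88, 9.35 and 9.32 in uninduced ones. Its departure of 0.80 did not pass (adjusted p = 0.0604), nor did its difference of -0.33 in B3 and C6 alone (adjusted p = 0.167). Ubqln2, a shuttle protein that carries ubiquitinated substrates, ran the other way with -0.78 (adjusted p = 0.0652), whereas the shuttle factors Rad23b and Ubqln4 departed by 0.71 and 0.76 and the ubiquitin ligases Ube4b and Stub1 by 0.72 and 0.69 (adjusted p = 0.0779 and 0.0955 for these ligases). In B3 and C6 alone Ubqln2 differed by 0.34, Rad23b by -0.47, Ubqln4 by -0.43, Ube4b by -0.33 and Stub1 by -0.38, none past the threshold. Pomp, the chaperone that completes the core, stood at 11.70, 11.80 and 11.90 in induced A1, B3 and C6 and 11.84, 11.70 and 11.74 in uninduced cells. Its differences of -0.14, 0.10 and 0.16 had the signs of most alpha ring genes. Akirin2, which brings proteasomes into the nucleus, differed by -0.02, -0.15 and -0.12 in A1, B3 and C6, with a mean difference of -0.10 (95% interval -0.31 to 0.12). In the comparison of clone levels (limma F test, 1.13% of all probe sets passed) 1 gene of the list passed, Ngly1, an enzyme that processes Nfe2l1. It stood at 6.57, 5.81 and 6.72 in induced A1, B3 and C6 cells and at 6.74, 5.63 and 6.55 in uninduced ones, lowest in both B3 arrays, and its span was 0.94 (adjusted p = 0.0426). With quantile normalization, or with the dimmest probe sets left out, no gene of the list passed for clone levels.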

How the data were processed

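RNA was hybridized to Affymetrix whole-genome mouse arrays. The authors deposited log2 values, 1 per probe set and array, made by RMA with affy (versions not given in the sources used here), and these were used unchanged. Of 45101 probe sets, 64 controls were left out. Of the rest, 34945 carried 1 gene symbol, 932 several and 9160 none. Fits were made with limma 3.58.1 in R 4.3.3 (two-sided) and p-values adjusted by Benjamini-Hochberg over the 45037 probe sets, with a threshold of 0.05. Each clone stood in both groups, so arrays are paired by clone. The deviations of a clone's 2 arrays from their group means correlated at 0.19, 0.53 and 0.31 for A1, B3 and C6 over all probe sets, and at -0.21, 0.73 and -0.17 over the members. Since no pairing is named in the methods, results are from the fit without the clone unless a block is stated. The methods' t-test was an alternative. The p-values of the induction fit on all arrays measure the spread among 3 clones. For the A1 departure the spread is that between the B3 and C6 differences, so the spread of A1 itself is not measured. The fit of B3 and C6 alone rests on 2 clones. The test of clone levels measures the spread left between the 2 arrays of each clone after the induction term. Members and lists were chosen with earlier results of these data known. Named were Psmb5, per subcomplex the brightest gene and those with the largest difference and A1 departure, all immunoproteasome genes, called genes, and, of the other list, those with the smallest p, Nfe2l1 and Pomp. Psmd2, Psmd11, Psma8, Psmf1 and the other members named beyond these were chosen after their values were seen. The scripts were tested on simulated data.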

Additional observations from a re-analysis of the deposited data

Results flagged for a closer look

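The departure of A1 from the mean of B3 and C6 passed for 5 of the 103 probe sets of the 49 genes, beside 1219 of all 45037 probe sets (2.71%). The 5 are listed because the test of the difference between clones itself was past an adjusted p of 0.05 (limma). These were Psme3 at 1.96 (1418078_at), Psmd11 at 1.36 (1431013_at) and -0.88 (1456104_at), Psmd3 at 0.90 (1448479_at) and Psma7 at -0.84 (1423568_at). All 5 rest on a single induced and a single uninduced array of A1. Set against each other clone in turn, A1 exceeded B3 by 1.48 and C6 by 2.45 at Psme3, and by 0.86 and 0.95 at Psmd3. In B3 and C6 alone, Psme3 1418078_at and Psmd11 1456104_at passed, and the other 3 did not. The B3 and C6 differences also enter the departure, so the fit of these clones is no separate check. Whether the 2 A1 arrays carry the right state labels was not tested.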

How the results depend on the processing

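With induction, limma called 0 probe sets and 0 proteasome genes under the replicate block, the methods' t-test, array weights, quantile normalization, the trend and robust model, 1 probe set per gene, the filter at a mean of 6 and a threshold of 0.1. Leaving out arrays or clones gave 0 to 981 probe sets and 0 to 1 proteasome genes. The upper values came without clone A1 and with the replicate block. The median over the members lay between -0.01 and 0.04. Of the A1 departure, 2355 of 17168 probe sets and 6 of 46 members passed with a mean of at least 6. At a threshold of 0.1, 2642 of 45037 probe sets and 5 of 49 members did. With 1 probe set per gene, 458 of 18193 and 2 of 49 passed. With the trend and robust model 1 member passed, Psmd3, beside 935 of 45037 probe sets. Clone levels gave 1026 of 45037 probe sets without the induction term, 1104 of 45037 at a threshold of 0.1, and 108 of 17168 with a mean of at least 6. Under the last setting, 0 members passed. Leaving Psmc3ip and Psme3ip1 out of the count was an alternative chosen after seeing the data. It gave 0 necessarily, because Psmc3ip was the only member called in the main fit. Of 952 gene values under alternatives, 929 kept their side of the threshold, 2 lost it (Psme3 and Psmc3ip), 21 gained it, and none changed sign while past the threshold. Ngly1 was not among the genes counted, and it lost its call for clone levels with quantile normalization and with a mean of at least 6. Sign changes of values not past the threshold were not counted. The cause was not tested. With 3 arrays per group, signal near the lower quartiles (3.66 to 3.73) limits Psmb8 and Psmb11.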
